A study of Mus musculus with 3 samples.

Results

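Polycomb repressive complex 2 (PRC2) was followed here through the messenger RNAs of 10 of its subunit genes: Ezh1, Ezh2, Eed, Suz12, Rbbp4 and Rbbp7 of the core, and Jarid2, Mtf2, Phf1 and Phf19, which join the core as accessory subunits. The 10 genes were taken by symbol. They are 10 of 24006 gene symbols and 29 of 48843 transcripts in the deposited count tables. The study sequenced polyadenylated RNA from 3 isogenic male lines of mouse embryonic stem cells (ESCs, the cultured counterpart of the pluripotent inner cell mass), with 1 library each. One clone is labelled DAXX-/-, one ATRX-/- and one wildtype, and all 3 share the C57BL/6x129sV background. Both knockouts were made by CRISPR, and where in either gene the change lies was not stated in the labels. Per the labels' protocols, every clone grew in fetal bovine serum with leukaemia inhibitory factor and had been moved from irradiated feeder cells to gelatin before RNA was taken.

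DAXX is a histone chaperone and ATRX a chromatin remodeller, and together they place the histone variant H3.3 at repeats and telomeres. Each genotype is a single clone and a single library, so each difference reported is one between 2 libraries. It has no replicate check and no test of genotype could be made.

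PRC2 adds methyl groups to lysine 27 of histone H3, a mark of genes held silent. EZH2 or its relative EZH1 carries the catalytic domain and works only when bound to EED, which reads the finished mark, and to SUZ12, the scaffold. RBBP4 and RBBP7 are histone-binding proteins that also serve in other chromatin complexes. The core joins one of 2 sets of accessory subunits: PRC2.1 holds a Polycomb-like protein (PHF1, MTF2 or PHF19), and PRC2.2 holds JARID2 and AEBP2. In ESCs the complex covers many promoters of developmental regulators, and cells lacking it still renew themselves but differentiate poorly.

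The libraries held 11224100 reads on transcripts in DAXX knockout cells, 13988376 in ATRX knockout cells and 13981915 in wildtype. Atrx had 3576 reads in DAXX knockout cells, 1800 in ATRX knockout cells and 4582 in wildtype, and Daxx had 623, 972 and 1125 reads in the same libraries, so that each targeted gene was lowest in the library that bears its name. The 8 ESC markers examined, in counts scaled by effective library size (CPM), summed to 5727 in DAXX knockout cells, 5812 in ATRX knockout cells and 5354 in wildtype, with 0 of the 8 at 0 reads in any library. The 12 markers of feeder fibroblasts summed to 9.71, 18.99 and 24.7 CPM, and the 10 of primitive endoderm to 45.9, 65.2 and 158 CPM, in the same order. Both were lowest in DAXX knockout cells. RNA from a whole culture cannot tell fewer cells of a type from less RNA per cell.

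Several members are paralogs, so the sequence that could be confused between them was measured first. No 36-base word of Ezh1, Ezh2, Eed, Suz12, Jarid2, Mtf2, Phf1 or Phf19 occurred in a transcript of another symbol on either strand (0 for each of the 8 genes). The longest exact run shared by Rbbp4 and Rbbp7 was 20 bases of coding sequence in exon 4 of each gene, and Ezh1 and Ezh2 shared at most 17 coding bases, in exon 21 of Ezh1 and exon 20 of Ezh2. The runs are shown because they set how far reads of one paralog could be counted under the other. No base is capitalised, since the whole run is what matters.
Rbbp4 and Rbbp7 (GRCm38, Rbbp4 at chr4:129322797-129322816, minus strand, and Rbbp7 at chrX:162769817-162769836, plus strand): aaccatgaaggagaagtgaa
Ezh1 and Ezh2 (GRCm38, Ezh1 at chr11:101192961-101192977 and Ezh2 at chr6:47530563-47530579, both minus strand): aagtatgtgggcatcga
Within any stretch of 50 bases the closest match between Rbbp4 and Rbbp7 held 4 mismatches, and so did the closest match between Ezh1 and Ezh2. No source here states the read length, and for 36 bases the fewest mismatches were 3 for the Rbbp pair and 2 for the Ezh pair. Among 50-base words, overlap with a neighbour in the tables touched only the Rbbp genes. Of the 50-base words of Rbbp4, 10.8% lay on the opposite strand of Sync, which had 11 reads in DAXX knockout cells, 25 in ATRX knockout cells and 27 in wildtype. Of those of Rbbp7, 5.33% lay opposite Txlng, which had 828, 788 and 1083 reads in those libraries. The labels do not state the use of strand, so reads from these ends cannot be told apart.

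Levels were compared between genes per length, as reads per kilobase of the longest transcript, scaled to the sum of such values over all gene symbols of a library (the scale known as TPM, here with 1 length per gene). These levels order the genes within a library; folds between libraries were taken from CPM, which are scaled differently. All 10 members were present in all 3 libraries, and they fell into 2 tiers. Of the core, Rbbp7 led with 339.6 in DAXX knockout cells, 324 in ATRX knockout cells and 354 in wildtype. Rbbp4 followed with 269 in DAXX knockout cells, 266 in ATRX knockout cells and 249.7 in wildtype. Ezh2, Eed, Jarid2, Suz12 and Mtf2 lay between 139 and 213 in every library. The lower tier began with Ezh1, at 13.0 in DAXX knockout cells, 16.7 in ATRX knockout cells and 18.8 in wildtype. Phf19 had 9.99, 6.67 and 8.77 in the same libraries, and Phf1 was lowest with 4.19, 4.51 and 4.50. The gap between the tiers was a ratio of 10.7 in DAXX knockout cells (Suz12 over Ezh1), 8.39 in ATRX knockout cells and 8.87 in wildtype (both Mtf2 over Ezh1).

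**Figure D1:**
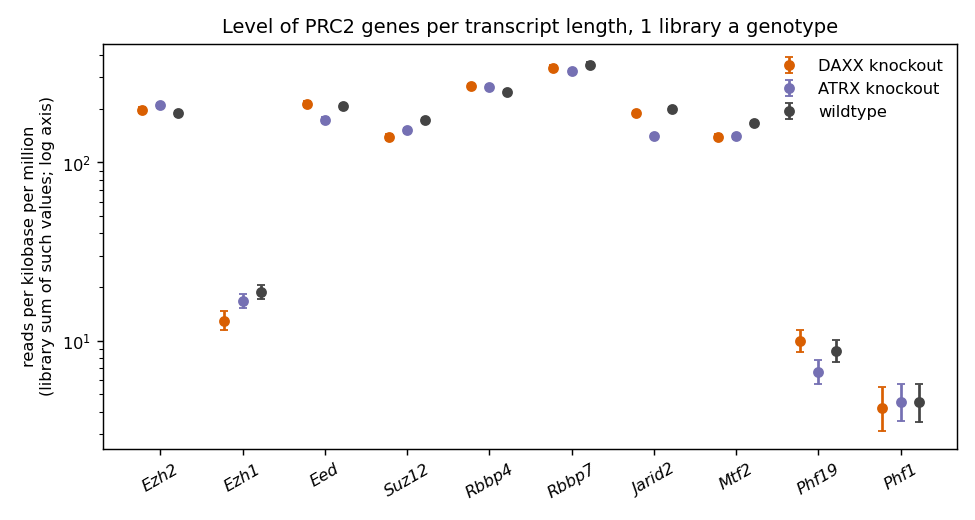
Level of each PRC2 gene per transcript length (reads per kilobase on the TPM scale, log axis) in DAXX knockout cells, ATRX knockout cells and wildtype, 1 library each; bars are 95% intervals that cover counting error only. Ezh2, Eed, Suz12, Rbbp4, Rbbp7, Jarid2 and Mtf2 form the upper tier, and Ezh1, Phf19 and Phf1 the lower one.

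The plot of levels shows that counting error separates most neighbours in the order, though not all. In DAXX knockout cells the intervals of Ezh2 and Jarid2, of Mtf2 and Suz12, and of Ezh1 and Phf19 overlapped. In ATRX knockout cells those of Jarid2 and Mtf2 did, at 141 and 140.2, and in wildtype those of Eed and Jarid2 and of Suz12 and Mtf2. Jarid2 held rank 5 in DAXX knockout cells, 6 in ATRX knockout cells and 4 in wildtype. Summed by class, the 6 core genes came to 1169 in DAXX knockout cells, 1141 in ATRX knockout cells and 1190.4 in wildtype. The 3 Polycomb-like genes of PRC2.1 came to 154 in DAXX knockout cells, 151 in ATRX knockout cells and 179.6 in wildtype, of which Mtf2 alone gave 139.8, 140.2 and 166. The core sum was thus larger than that of the Polycomb-like genes or the level of Jarid2 in every library. The core has the most genes, and its sum includes Rbbp4 and Rbbp7, which also serve in other complexes. The sums therefore do not measure the supply of core against accessory subunits. The order within the upper tier depends on transcript choice: when each transcript was divided by its own length, 4 members changed rank in DAXX knockout cells, 4 in ATRX knockout cells and 5 in wildtype, and Jarid2 came to rank 2 in DAXX knockout cells, 5 in ATRX knockout cells and 2 in wildtype.

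Differences between libraries were small for nearly all members. Counts were scaled by the trimmed mean of M values, and a gene was called when the whole 95% counting interval of its fold lay beyond 2-fold or beyond a finer limit of 0.32 on the log2 scale (25% above or 20% below). All 10 members reached 1 CPM in every library. Beyond 2-fold, 0 of 10 were called in DAXX knockout cells against wildtype, where 2.04% of the 13151 genes tested were called, 0 of 10 in ATRX knockout cells against wildtype (1.84% of 13230 genes) and 0 of 10 in ATRX knockout cells against DAXX knockout cells (1.13% of 12991 genes). Beyond the finer limit, 0 of 10 were called in DAXX knockout cells against wildtype, with 9.46% of all genes tested. Against wildtype ATRX knockout cells had 1 of 10 called, Jarid2, which was lower; 5.72% of all genes tested were called lower and 12.1% in either direction. Jarid2 was also the 1 of 10 called lower in ATRX knockout cells against DAXX knockout cells, beside 3.91% of all genes tested called lower and 9.48% in either direction. With 10 genes, 1 call is close to those shares. The median log2 fold of the 10 members was 0.04 in DAXX knockout cells against wildtype, where all genes tested had 0.02, and -0.07 in ATRX knockout cells against wildtype, where all genes tested had 0.02. The size of the log2 fold, without its sign, had a median of 0.157 over the members in DAXX knockout cells and 0.143 in ATRX knockout cells, each against wildtype, beside 0.197 and 0.216 over all genes tested. Over genes with a mean of at least 10 CPM, as 9 of the 10 members have, it was 0.150 in DAXX knockout cells and 0.170 in ATRX knockout cells, close to the members' values.

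**Figure D2:**
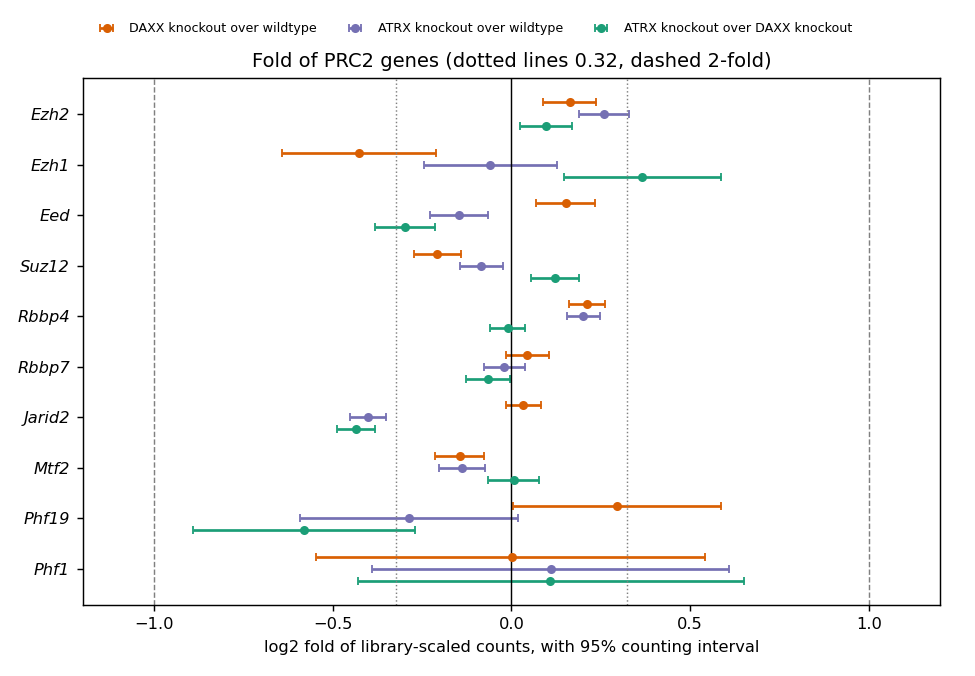
Log2 fold of each PRC2 gene in DAXX knockout cells over wildtype, ATRX knockout cells over wildtype and ATRX knockout cells over DAXX knockout cells (1 library each), with 95% counting intervals; dotted lines mark the finer limit of 0.32 and dashed lines 2-fold. The intervals of Jarid2 that involve ATRX knockout cells lie wholly below the lower dotted line, at -0.40 and -0.43; the other intervals reach inside the dotted lines.

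In the plot of folds with their intervals, the interval in DAXX knockout cells against wildtype lay above 0 for Ezh2, Eed, Phf19 and Rbbp4, below 0 for Ezh1, Suz12 and Mtf2, and held 0 for Jarid2, Phf1 and Rbbp7. In ATRX knockout cells against wildtype it lay above 0 for Ezh2 and Rbbp4, below 0 for Eed, Suz12, Jarid2 and Mtf2, and held 0 for Ezh1, Phf1, Phf19 and Rbbp7. Ezh2 and Rbbp4 were thus above wildtype, and Suz12 and Mtf2 below it, in both knockouts. Scaled by total counts, the intervals of Ezh2, Eed and Phf19 in DAXX knockout cells held 0, and that of Jarid2 lay below it. In ATRX knockout cells those of Phf19 and Rbbp7 then lay below 0. The share of all genes whose interval leaves out 0 was not counted, so this sorting does not set the members apart. The comparisons share the wildtype library, so a chance deviation of that library enters both.

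**Figure D3:**
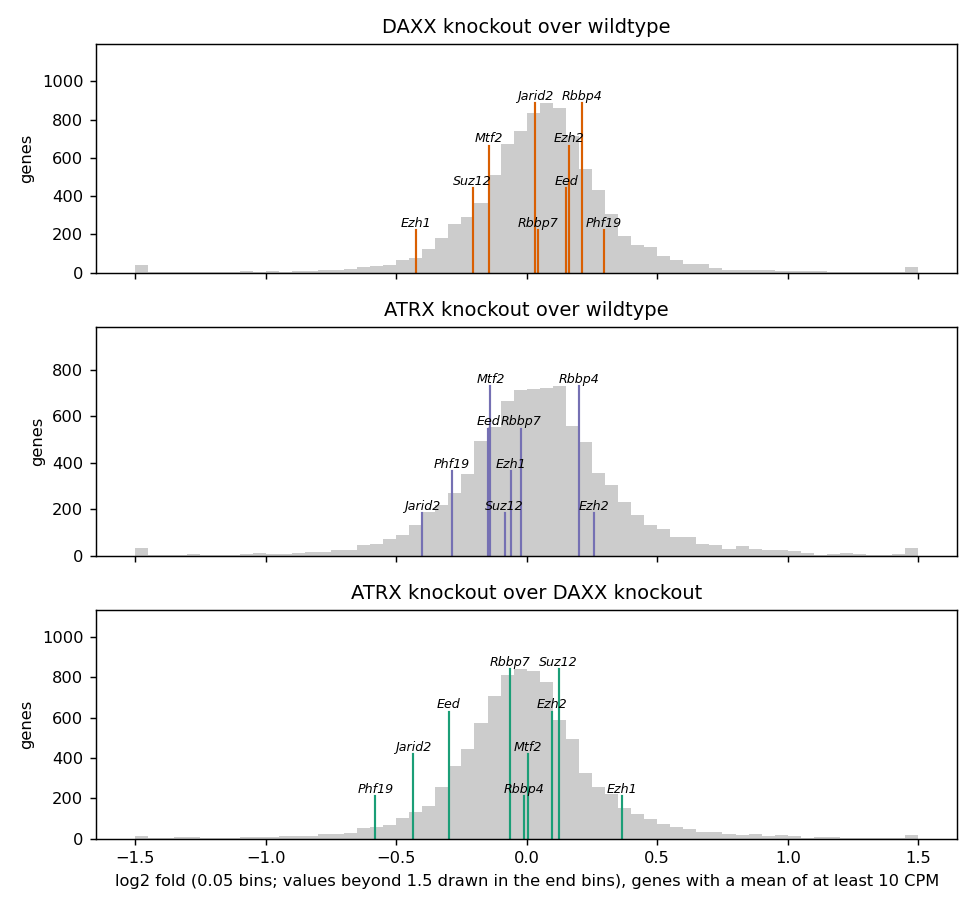
Histograms of the log2 fold of all genes with a mean of at least 10 CPM (bins of 0.05; values beyond 1.5 are drawn in the end bins; y axis, number of genes) in the 3 comparisons, 1 library a genotype, with the PRC2 genes above that level marked by lines whose heights carry no value. Most members lie in the body of the histogram; Ezh1 in DAXX knockout cells, Jarid2 in ATRX knockout cells and Phf19 between the knockouts lie in its lower flank.

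Among genes with a mean of at least 10 CPM, 81.4% lay inside the finer limit in DAXX knockout cells against wildtype and 75.8% in ATRX knockout cells against wildtype. The histograms place the members in these distributions. Ezh1 stood lower than all but 4.07% of such genes in DAXX knockout cells, and Jarid2 lower than all but 6.17% in ATRX knockout cells, each against wildtype. Phf1 lies below that level and is not drawn.

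Jarid2 gave the 2 calls. Its product, a protein of the Jumonji family without demethylase activity, belongs to PRC2.2, binds the core and aids its recruitment in ESCs. The gene lies on the plus strand at chr13:44729474-44921643 (GRCm38) and had 5832 reads in DAXX knockout cells, 5471 in ATRX knockout cells and 7576 in wildtype, or 534, 395 and 522 CPM in the same libraries. ATRX knockout cells stand below both other libraries, which lie close together. Their Jarid2 level was 75.7% of wildtype (73.1 to 78.4), a log2 fold of -0.40 (-0.45 to -0.35), and 74.0% of that in DAXX knockout cells (71.3 to 76.8), a log2 fold of -0.43 (-0.49 to -0.38). DAXX knockout cells differed from wildtype by 0.03 (-0.02 to 0.08). The lower level in ATRX knockout cells thus lay beyond the finer limit and well inside 2-fold.

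The longest transcript of Jarid2 has 5997 bases, and long transcripts stood lower in the ATRX knockout library. Among genes with a mean of at least 10 CPM, the quintile with the longest transcripts (5148 bases and more, 1814 genes) had a median log2 fold of -0.03 in ATRX knockout cells against wildtype, and the quintile with the shortest had 0.08. In the longest quintile 14.6% of genes lay below wildtype by more than the finer limit, against 7.84% to 8.89% in the other quintiles. Jarid2 was lower than all but 9.76% of the genes in its own length quintile. Measured from the median of that quintile, its log2 fold in ATRX knockout cells against wildtype was -0.38 (-0.43 to -0.33), still called. Against DAXX knockout cells it was -0.37 (-0.42 to -0.32) when so measured, which is no longer called. Measured from genes of like GC content (Jarid2 has 49.1%), the log2 folds were -0.44 against wildtype and -0.41 against DAXX knockout cells, both still called. These comparisons by length and GC content were added after the data were seen, and the part that transcript length has in the result was not tested further.

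The lower Jarid2 count in ATRX knockout cells was spread over the transcripts. The longest of the 5, ENSMUST00000173246, had 2071 reads in DAXX knockout cells, 1964 in ATRX knockout cells and 2740 in wildtype. The shortest, ENSMUST00000172977 of 670 bases, had 135, 129 and 199 reads in those libraries. All 5 transcripts had intervals below 0 in ATRX knockout cells, with log2 folds of -0.56 to -0.36 against wildtype and -0.48 to -0.39 against DAXX knockout cells. In DAXX knockout cells against wildtype, 0 of the 5 had an interval that left 0 out. The share of Jarid2 reads on the longest transcript was 35.5% in DAXX knockout cells, 35.9% in ATRX knockout cells and 36.2% in wildtype, so that the makeup of the Jarid2 count hardly moved. Placing reads evenly over the shared and unshared sequence would give 39.5%. The transcripts share most of their sequence and thus their reads, and they are not replicates.

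**Figure D4:**
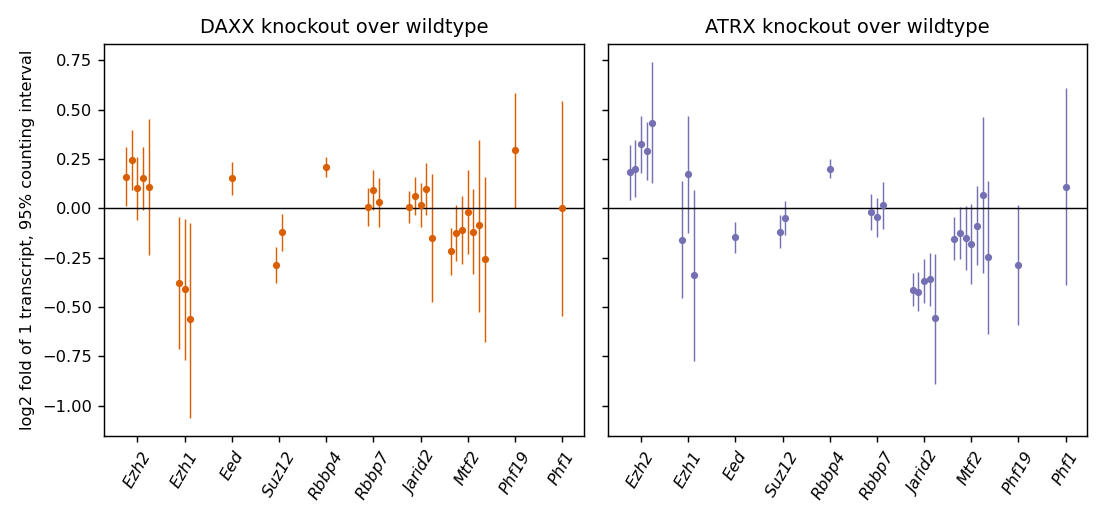
Log2 fold of every listed transcript of each PRC2 gene in DAXX knockout cells over wildtype (left) and ATRX knockout cells over wildtype (right), 1 library each, with 95% counting intervals; the transcripts of a gene stand side by side, longest first. All 5 Jarid2 transcripts lie below 0 in ATRX knockout cells, all 3 Ezh1 transcripts below 0 in DAXX knockout cells and all 5 Ezh2 transcripts above 0 in ATRX knockout cells.

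The plot of transcripts shows the same for 2 other members. All 3 Ezh1 transcripts had intervals below 0 in DAXX knockout cells against wildtype (-0.56 to -0.38), and all 5 Ezh2 transcripts had intervals above 0 in ATRX knockout cells against wildtype (0.18 to 0.43). Of the 36-base words of the 2 longer Ezh1 transcripts, 0.34% and 0% occurred in no other Ezh1 transcript. Their agreement is therefore no separate support, and here too the transcripts of a gene are not replicates. For Mtf2, 7 of 7 transcripts had a negative log2 fold in DAXX knockout cells against wildtype, but the interval left out 0 for 1 of the 7.

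Promoter sequence is shown for the 4 windows that bear on the members above: both RefSeq starts of Jarid2, the start of Ezh1 and, from a member above wildtype in both knockouts, the start of Rbbp4. Each window is the 250 bases before the RefSeq start (GRCm38.p6), read on the gene's strand, and holds 0 bases of any exon. Capitals mark matches on either strand to common promoter motifs. The letters searched for the CCAAT box are those of its name. The GC box was searched as GGGCGG, and the TATA box was searched as TATAAA. For E2F factors the letters were TTTCCCGC, TTTCGCGC, TTTGCCGC or TTTGGCGC. No matches overlap one another in these windows.
Jarid2, first start, chr13:44730524-44730773, plus strand: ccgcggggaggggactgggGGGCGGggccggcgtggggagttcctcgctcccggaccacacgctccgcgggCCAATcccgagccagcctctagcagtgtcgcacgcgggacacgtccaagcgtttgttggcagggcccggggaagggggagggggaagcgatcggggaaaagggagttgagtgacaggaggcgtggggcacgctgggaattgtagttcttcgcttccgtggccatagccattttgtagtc
Jarid2, second start, chr13:44731021-44731270, plus strand: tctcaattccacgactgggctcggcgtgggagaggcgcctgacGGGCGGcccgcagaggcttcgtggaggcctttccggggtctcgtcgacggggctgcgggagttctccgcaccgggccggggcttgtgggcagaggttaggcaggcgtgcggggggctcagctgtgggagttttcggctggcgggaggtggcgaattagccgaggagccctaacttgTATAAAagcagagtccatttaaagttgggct
Ezh1, chr11:101226464-101226713, minus strand: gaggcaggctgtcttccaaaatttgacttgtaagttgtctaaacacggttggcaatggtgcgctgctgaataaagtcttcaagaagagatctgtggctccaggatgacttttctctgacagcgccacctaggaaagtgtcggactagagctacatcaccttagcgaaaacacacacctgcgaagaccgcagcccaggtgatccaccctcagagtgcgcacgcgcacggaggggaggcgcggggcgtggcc
Rbbp4, chr4:129335371-129335620, minus strand: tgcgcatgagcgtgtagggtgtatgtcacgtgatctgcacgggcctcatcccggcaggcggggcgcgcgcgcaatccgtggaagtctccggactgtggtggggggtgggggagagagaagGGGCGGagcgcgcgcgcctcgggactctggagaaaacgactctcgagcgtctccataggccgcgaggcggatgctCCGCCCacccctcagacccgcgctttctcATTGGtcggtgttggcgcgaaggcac
The first Jarid2 window holds 1 CCAAT box and 1 GC box, and the second holds 1 GC box and 1 TATA box, whose first base lies 31 bases before the start. The Rbbp4 window holds 1 CCAAT box and 2 GC boxes, while none of the letters searched occur in the Ezh1 window. CpG dinucleotides number 23 and 22 in the Jarid2 windows, 14 in that of Ezh1 and 30 in that of Rbbp4. Over 32817 RefSeq windows of the same length, 33.8% held a CCAAT box, 32.7% a GC box, 12.4% a TATA box and 1.86% an E2F match, and the median number of CpG was 6 (quartiles 2 and 16). All 4 windows printed thus carry more CpG than the median. A match here describes letters and shows no bound factor, and no match says nothing of one.

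The 2 catalytic subunits differed from wildtype in different ways. Ezh2, the main methyltransferase of ESCs, lies on the minus strand at chr6:47530139-47595341 and had 2657 reads in DAXX knockout cells, 3600 in ATRX knockout cells and 3155 in wildtype (243, 260.0 and 217 CPM). Both knockouts were above wildtype, by a log2 fold of 0.16 (0.09 to 0.24) in DAXX knockout cells and 0.26 (0.19 to 0.33) in ATRX knockout cells. Neither interval lies wholly beyond the finer limit, and scaled by total counts the value in DAXX knockout cells was 0.07 (-0.01 to 0.14). Ezh1, the less active paralog that prevails in non-dividing cells, lies on the minus strand at chr11:101191115-101226463. It had 279 reads in DAXX knockout cells, 456 in ATRX knockout cells and 498 in wildtype (25.5, 32.9 and 34.3 CPM), with DAXX knockout cells below both others. Its level there was 74.5% of wildtype (64.1 to 86.4), a log2 fold of -0.43 (-0.64 to -0.21), as far from 0 as that of Jarid2 in ATRX knockout cells but with a wider interval that reaches inside the finer limit. ATRX knockout cells differed from wildtype by -0.06 (-0.25 to 0.13). Per length, Ezh1 stood at 6.62% of Ezh2 in DAXX knockout cells (5.83 to 7.49), 7.98% in ATRX knockout cells (7.23 to 8.80) and 9.95% in wildtype (9.03 to 10.9). The ratio was below wildtype in both knockouts, with intervals that do not overlap that of wildtype.

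Eed and Suz12, the 2 subunits that the catalytic one cannot work without, stood differently in the 2 knockouts. Eed, on the minus strand at chr7:89954654-89980983, had 2247 reads in DAXX knockout cells, 2316 in ATRX knockout cells and 2689 in wildtype (206, 167 and 185 CPM). DAXX knockout cells lay above wildtype by 0.15 (0.07 to 0.23) on the log2 scale and ATRX knockout cells below it, at -0.15 (-0.23 to -0.07). Scaled by total counts the Eed value in DAXX knockout cells was 0.06 (-0.02 to 0.14). Suz12, on the plus strand at chr11:79993106-80034123, had 3108 reads in DAXX knockout cells, 4290 in ATRX knockout cells and 4769 in wildtype (285, 310 and 329 CPM). Both knockouts lay below wildtype, with log2 folds of -0.21 (-0.27 to -0.14) in DAXX knockout cells and -0.08 (-0.14 to -0.02) in ATRX knockout cells. Eed thus lay on opposite sides of wildtype and Suz12 on the same side, and none of these intervals lies wholly beyond the finer limit.

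The histone-binding pair differed within itself. Rbbp4, on the minus strand at chr4:129307100-129335370, had 6051 reads in DAXX knockout cells, 7617 in ATRX knockout cells and 6946 in wildtype (554, 550.1 and 479 CPM). Both knockouts were above wildtype by nearly the same log2 fold, 0.21 (0.16 to 0.26) in DAXX knockout cells and 0.20 (0.15 to 0.25) in ATRX knockout cells. Rbbp7, on the plus strand at chrX:162760402-162779092, had 3896 reads in DAXX knockout cells, 4723 in ATRX knockout cells and 5021 in wildtype (357, 341 and 346 CPM), and both intervals against wildtype held 0. Scaled by total counts, Rbbp7 in ATRX knockout cells was at -0.09 (-0.15 to -0.03), which leaves out 0. Its range over the 3 libraries, 0.06 on the log2 scale, was the narrowest of the 10 members. Per length, Rbbp7 stood at 126% of Rbbp4 in DAXX knockout cells (121 to 132), 122% in ATRX knockout cells (117 to 126) and 142% in wildtype (137 to 147). The excess of Rbbp7 over Rbbp4 was thus smaller in both knockouts than in wildtype.

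Of the Polycomb-like subunits, which tie PRC2.1 to CpG-rich DNA, Mtf2 is the one that ESCs use most. It lies on the plus strand at chr5:108065674-108109004 and had 2902 reads in DAXX knockout cells, 3694 in ATRX knockout cells and 4263 in wildtype (266, 267 and 294 CPM). Both knockouts lay below wildtype by the same log2 fold of -0.14, with intervals of -0.21 to -0.08 in DAXX knockout cells and -0.20 to -0.07 in ATRX knockout cells. Set against Mtf2 per length, Jarid2 stood at 136% in DAXX knockout cells (130.1 to 142), 100.3% in ATRX knockout cells (96.2 to 104.6) and 120.3% in wildtype (116 to 125). The balance of these PRC2.2 and PRC2.1 transcripts thus lay on either side of wildtype in the 2 knockouts, and the 3 intervals do not overlap. Divided by own transcript lengths the same ratio was 122% in DAXX knockout cells, 90.2% in ATRX knockout cells and 109.9% in wildtype, in the same order.

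Phf19 and Phf1 were measured with far fewer reads. Phf19, on the minus strand at chr2:34893757-34914026, had 191 reads in DAXX knockout cells, 162 in ATRX knockout cells and 207 in wildtype (17.5, 11.7 and 14.3 CPM). Wildtype lay between the knockouts, with log2 folds of 0.29 (0.00 to 0.59) in DAXX knockout cells and -0.29 (-0.59 to 0.02) in ATRX knockout cells. Scaled by total counts, these folds were 0.20 (-0.09 to 0.49) and -0.35 (-0.66 to -0.05). Between the knockouts the difference was -0.58 (-0.89 to -0.27) for ATRX knockout cells over DAXX knockout cells, the widest of any member, yet its interval reaches inside the finer limit. Phf1, on the plus strand at chr17:26933052-26937908, had 52 reads in DAXX knockout cells, 71 in ATRX knockout cells and 69 in wildtype (4.76, 5.13 and 4.75 CPM). Its interval in DAXX knockout cells against wildtype ran from -0.55 to 0.54, so a difference at the finer limit was not detectable at this depth.

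The genes whose pattern over the 3 libraries was most like that of Phf19, the member with the widest range, were Dst, Ap3m2 and Ston2, by the distance between centred log2 CPM (0.00666, 0.0158 and 0.0166). Dst had 554, 371 and 455 CPM in DAXX knockout cells, ATRX knockout cells and wildtype. Over 3 libraries, 88 of 8738 genes lay within a distance of 0.1 of it.

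Of the other PRC2 subunit and partner genes, 5 were in the tables. Aebp2, the other subunit of PRC2.2, had 106 CPM in DAXX knockout cells, 88.1 in ATRX knockout cells and 107 in wildtype. Its log2 fold in ATRX knockout cells against wildtype was -0.29 (-0.40 to -0.18), not called, and in DAXX knockout cells it was -0.01 (-0.13 to 0.10). The signs match those of Jarid2 in ATRX knockout cells, and the size is smaller. AU022751, the X-linked gene that RefSeq names Ezhip and whose product inhibits PRC2 in germ cells, had 0 reads in DAXX knockout cells, 5 in ATRX knockout cells and 16 in wildtype. It was 4.01-fold lower in DAXX knockout cells against a floor of 3 counts and was the 1 of 5 called. The bound of its interval nearest to 0 is -1.54 on the log2 scale once counting error in the wildtype reads is included. AU022751 reached 1 CPM in wildtype alone, so a gene of this kind had to differ and the call says nothing of the list. In ATRX knockout cells 0 of 5 were called, and the log2 fold of AU022751 was -1.61 (-3.41 to -0.10). Of all genes tested, 9.46% were called in either direction beyond the finer limit in DAXX knockout cells and 12.1% in ATRX knockout cells. E130012A19Rik (RefSeq Epop), Lcor and Lcorl had intervals that held 0 in both knockouts against wildtype.

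**Figure D5:**
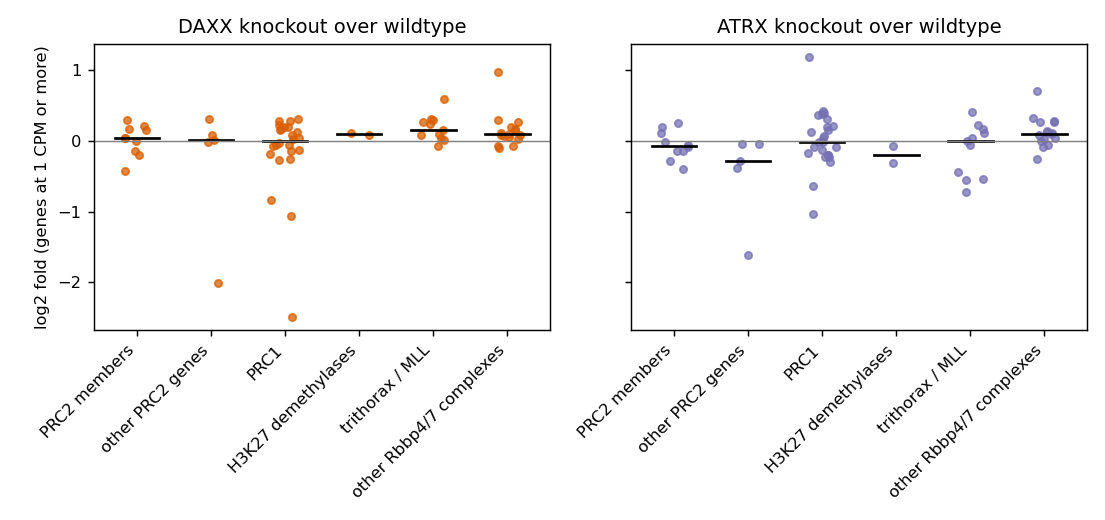
Log2 fold of each gene of at least 1 CPM in 1 of the 2 libraries, by list, in DAXX knockout cells over wildtype (left) and ATRX knockout cells over wildtype (right), 1 library each; points are spread sideways at random and horizontal bars are medians. AU022751, at 0 reads in DAXX knockout cells, is drawn at its bound; the PRC2 members cluster about 0, while single genes of other lists lie further out.

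The plot by list sets the members beside the genes that act with or against PRC2. Of the genes of PRC1, the complex that binds the PRC2 mark and ubiquitinates histone H2A, 2 of 24 tested were called beyond the finer limit in DAXX knockout cells and 1 of 25 in ATRX knockout cells, all lower. Over all genes tested, 9.46% were called in either direction in DAXX knockout cells and 12.1% in ATRX knockout cells. In ATRX knockout cells 5.72% of all genes tested were called lower. Scml2, an X-linked PRC1 partner best known from the male germline, had 13 reads in DAXX knockout cells, 45 in ATRX knockout cells and 97 in wildtype. It fell by 2.49 (-3.45 to -1.65) in DAXX knockout cells and by 1.04 (-1.58 to -0.52) in ATRX knockout cells on the log2 scale. Pcgf5, a ring-finger subunit of variant PRC1, had 61, 88 and 144 reads in those libraries and fell by 0.83 (-1.29 to -0.39) in DAXX knockout cells. The lysine 27 demethylases Kdm6a and Kdm6b gave 0 of 2 called in either knockout. Kdm6a had 77.2 CPM in DAXX knockout cells, 57.7 in ATRX knockout cells and 71.6 in wildtype, and Kdm6b had 75.4, 67.5 and 71.1 in those libraries.

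Trithorax-group methyltransferases and their partners mark active promoters and enhancers. In ATRX knockout cells 3 of 11 such genes were called lower beyond the finer limit, Kmt2d at -0.72 (-0.82 to -0.61), Kmt2c at -0.55 (-0.67 to -0.43) and Kmt2a at -0.53 (-0.64 to -0.43), and 1 higher, the shared subunit Wdr5 at 0.40 (0.34 to 0.46). In DAXX knockout cells 1 of 11 was called, Setd1b, which was higher at 0.58 (0.43 to 0.74). In ATRX knockout cells Setd1b had -0.44 (-0.62 to -0.26). The shares of all genes tested were 5.72% called lower and 12.1% in either direction in ATRX knockout cells. In DAXX knockout cells 9.46% were called in either direction. The 3 lower genes have long transcripts, 19823 bases for Kmt2d, 14967 for Kmt2c and 16470 for Kmt2a, and lie like Jarid2 in the longest quintile, while that of Wdr5 has 2890. Setd1b (8857 bases), Kmt2b (8469 bases) and Setd1a (6487 bases) lie in the same quintile and were not called in ATRX knockout cells against wildtype. Setd1b was lower, at the -0.44 given above, Kmt2b was near 0 (-0.08 to 0.07) and Setd1a was at -0.05 (-0.15 to 0.04). The part of transcript length in these folds was not tested. Of 16 genes of other complexes that hold RBBP4 or RBBP7 (NuRD, SIN3, CAF-1 and HAT1), 1 was called in each knockout. That was Mbd2, a methyl-CpG binding subunit of NuRD, with 218 reads in DAXX knockout cells, 231 in ATRX knockout cells and 148 in wildtype and log2 folds of 0.97 (0.66 to 1.28) and 0.71 (0.41 to 1.02) in the 2 knockouts. The other 15 were not called, as Rbbp4 itself was not, and 13 of the 16 had a positive log2 fold in each knockout. Their median was 0.09 in DAXX knockout cells and 0.10 in ATRX knockout cells. Over all genes with a mean of at least 10 CPM it was 0.06 and 0.04. Of the 3 negative in each knockout, Sin3a was negative in both, at -0.11 (-0.19 to -0.03) in DAXX knockout cells and -0.09 (-0.17 to -0.02) in ATRX knockout cells. Mta1, a NuRD subunit, had 0.27 (0.16 to 0.37) in DAXX knockout cells and 0.28 (0.18 to 0.38) in ATRX knockout cells, a little above the values of Rbbp4.

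Genes that PRC2 is known to hold silent in ESCs were scarcely read. Of 50 developmental regulators listed, 9 reached 1 CPM in DAXX knockout cells or wildtype and 10 in ATRX knockout cells or wildtype. Their summed level was 24.4 CPM in DAXX knockout cells, 34.7 in ATRX knockout cells and 49.5 in wildtype, and 23, 9 and 13 of the 50 had 0 reads in those libraries. None was called higher in either knockout against wildtype at either limit (0 of 9 and 0 of 10). Of all genes tested, 539 of 13151 were called higher beyond the finer limit in DAXX knockout cells, and 839 of 13230 in ATRX knockout cells. Called lower beyond it were 705 and 757 of them. With so few genes of the list tested, 0 called higher is close to those shares. In wildtype 9 of the 50 reached 1 CPM. A gene silent there could be tested only if the knockout reached 1 CPM, so 0 calls do not show that silence was kept. Cdx2, a homeobox regulator of trophectoderm, stayed just under the 1 CPM needed for a call: it had 3 reads in DAXX knockout cells, 13 in ATRX knockout cells and 0 in wildtype. Against a floor of 3 counts Cdx2 was 4.54-fold higher in ATRX knockout cells, with an interval whose bound nearest to 0 is 1.68 on the log2 scale. Among those called lower beyond the finer limit in DAXX knockout cells were Gata4, Gata6, Sox17 and the cell cycle inhibitor locus Cdkn2a. Gata4, a zinc finger regulator of endoderm and heart, had 9 reads in DAXX knockout cells, 75 in ATRX knockout cells and 97 in wildtype. Its log2 fold against wildtype was -3.02 (-4.19 to -2.04) in DAXX knockout cells and -0.30 (-0.76 to 0.15) in ATRX knockout cells, where it was not called. Genes that reached 1 CPM through wildtype alone had to differ, so these counts give no measure of the list as a whole.

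Gata4, Gata6 and Sox17 are also markers of primitive endoderm, of whose 10 markers 9 were called lower in DAXX knockout cells and 5 in ATRX knockout cells beyond the finer limit, with 2 of the 10, Sox17 and Foxq1, at 0 reads in DAXX knockout cells and 0 of the 10 in ATRX knockout cells and in wildtype. Of the 12 feeder markers, 6 were at 0 in DAXX knockout cells, 4 in ATRX knockout cells and 1 in wildtype, with Col3a1, Postn and Dcn at 0 in both knockouts and Lum at 0 in all 3 libraries. Among the 5 tested in each knockout, 4 were called lower in DAXX knockout cells and 2 in ATRX knockout cells. Of all genes tested, 9.46% were called in either direction in DAXX knockout cells and 12.1% in ATRX knockout cells. The endoderm markers at 1 CPM numbered 10 in wildtype, 2 in DAXX knockout cells and 6 in ATRX knockout cells. Those that reached 1 CPM through wildtype alone had to differ, so the counts called give no measure of these lists. The part of primitive endoderm or feeder cells in the values of the targets, or of the PRC2 members, was not tested. Of the ESC markers, 0 of 8 were called in DAXX knockout cells and 2 of 8, Klf4 and Nanog, were called higher in ATRX knockout cells beyond the finer limit, at 0.61 (0.55 to 0.66) and 0.41 (0.36 to 0.46).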

How the data were processed

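Each library came as a deposited table of raw read counts, laid out as SAMtools idxstats writes it: a transcript, its length and its reads. The submitters' processing notes name Bowtie 1.1.2, SAMtools and build GRCm38.p4. Alignment settings, read length, strand and annotation release are not given in the sources used here. Reads were aligned to transcripts, so introns do not enter the counts.

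Counts were summed by symbol (24006 symbols, 3 libraries of 11224100 to 13988376 reads on transcripts) and scaled by TMM in edgeR 4.0.16 (R 4.3.3). Factors were 0.973 for DAXX knockout cells, 0.990 for ATRX knockout cells and 1.04 for wildtype. Folds carry an exact binomial 95% interval (Clopper-Pearson, scipy 1.17.1) conditional on the sum of both counts, which covers counting error only and treats PCR copies as independent molecules. Genes with at least 1 CPM in 1 of the 2 libraries were judged by size alone: with 1 library per genotype there are 0 residual degrees of freedom and no p-value. A count of 0 was set against a floor of 3 counts. The calculation was tested on simulated data.

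The 10 members and all lists were chosen with earlier results of these data known. The rule for other genes named took at most 3 called genes per list, direction and knockout, those whose interval kept farthest from 0. Aebp2, E130012A19Rik, Lcor, Lcorl, Kdm6a, Kdm6b, Kmt2b, Setd1a, Mta1, Sin3a, Cdx2 and Cdkn2a were added after their values were seen. Positions and transcript sequences come from GENCODE M21 on GRCm38, which held 29 of the 29 member transcripts, 24 of them at the deposited length (those of another length belong to Eed, Ezh2 and Phf1). Promoters come from RefSeq (GRCm38.p6). Alternatives were total-count and DESeq2 1.42.0 scaling, the most abundant transcript, thinning to the smallest library, other filters, own transcript lengths and, added later, centring by length or GC content. One gene of the list of PRC2 targets is not reported here by name.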

Additional observations from a re-analysis of the deposited data

Results flagged for a closer look

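Eed lay on opposite sides of wildtype in the 2 knockouts. Its log2 fold against wildtype was 0.15 (0.07 to 0.23) in DAXX knockout cells and -0.15 (-0.23 to -0.07) in ATRX knockout cells, each with an interval that leaves out 0, and the log2 fold of ATRX knockout cells over DAXX knockout cells was -0.30 (-0.38 to -0.21). The difference was not tested, since each genotype has 1 library. Neither fold against wildtype reaches the finer limit of 0.32, and scaled by total counts the fold in DAXX knockout cells was 0.06 (-0.02 to 0.14).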

How the results depend on the processing

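No paired analysis was possible because each genotype has 1 library. No value reversed a call. Calls among the 10 members were the same under every alternative except 1: centred on genes of like length, 0 in place of 1 were called lower in ATRX knockout cells against DAXX knockout cells. Total-count scaling lowered the medians of all genes tested to -0.08 (DAXX knockout) and -0.05 (ATRX knockout) against wildtype, and the sign of 7 of 30 member folds changed under at least 1 of the other scalings, thinning or the most abundant transcript (Jarid2, Phf1 and Rbbp7 in DAXX knockout cells; Phf1 and Rbbp7 in ATRX knockout cells; Mtf2 and Rbbp4 between the knockouts). Jarid2 in ATRX knockout cells against wildtype stayed between -0.47 and -0.40 under those and was -0.38 centred by length and -0.44 centred by GC content, and DESeq2 scaling kept 30 of 30 member folds within their intervals, total counts 18. A filter of 10 CPM leaves fewer genes to test: called lower beyond 2-fold were then 68 in place of 204 in DAXX knockout cells and 63 in place of 152 in ATRX knockout cells, and beyond the finer limit (0.32 on the log2 scale) 259 in place of 705 and 400 in place of 757. Called higher in ATRX knockout cells against DAXX knockout cells were 42 in place of 100 beyond 2-fold and 391 in place of 724 beyond that limit. With total counts, 357 in place of 539 genes were called higher beyond that limit in DAXX knockout cells. Dividing by own transcript lengths moved 4, 4 and 5 members in rank in DAXX knockout cells, ATRX knockout cells and wildtype. The core sum became 1103, 1083 and 1124 in those libraries, the PRC2.1 sum 209, 207 and 244, the Jarid2 level 239.7, 178 and 255.5, and Jarid2 over Mtf2 122%, 90.2% and 109.9%. Depth limits Phf1 and Phf19, whose intervals span over 0.5 on the log2 scale. One clone per genotype leaves clone, culture and genotype impossible to tell apart.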
